A study of Rattus norvegicus with 12 samples.

Results

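The genes described here encode the oxygen-sensing machinery of the cell. They are the HIF subunits Hif1a, Epas1, Hif3a and Arnt, the prolyl hydroxylases Egln1, Egln2 and Egln3, the asparaginyl hydroxylase Hif1an and the ubiquitin ligase subunit Vhl. They were grouped by their known roles, and they were chosen with earlier results of these data known. These 9 genes, among 34599 loci in the count table, were all expressed highly enough to be tested. RNA-seq had been run on left ventricular myocardium of 12 male Sprague-Dawley rats, 4 in each of 3 groups, taken on day 1 after surgery. Sham rats had the chest opened without ligation of the coronary artery. MI rats had the left anterior descending coronary artery tied off, and the infarcted ventricle was sampled. The iCarP+/Light+ rats had the same ligation, then received the green alga Chlorella in the infarcted wall and a light-scattering fibre patch, iCarP, glued to the heart surface and lit for hours so that the alga would release oxygen. They therefore differ from MI rats in alga, patch, adhesive and light together, and the RNA of rats with an unlit patch was not analysed here. The comparisons ask how the infarct, and the infarct under an illuminated oxygen source, differ in the transcripts of the genes that sense oxygen. Each library came from a separate animal, so p-values measure the spread between rats.

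A HIF transcription factor is a pair of an alpha subunit and Arnt. When oxygen is present the Egln enzymes hydroxylate prolines of the alpha subunit, Vhl binds the modified protein, and the proteasome destroys it, while Hif1an hydroxylates an asparagine and keeps coactivators away. When oxygen is short these reactions slow, the alpha subunit persists at the protein level, and HIF switches on genes of glycolysis, vessel growth and oxygen transport, with Egln1 and Egln3 among its known target genes. Hif1a is made in nearly all cells, Epas1 is known for its high level in endothelium, and Hif3a gives rise to several isoforms, some of which restrain the others. RNA-seq reads the transcripts only, so neither the protein of an alpha subunit nor the activity of a hydroxylase was measured.

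The promoters of 5 members are printed because the results turn on these genes: Hif3a, Egln3, Egln1 and Hif1a had the largest fitted rises from MI to iCarP+/Light+, and Epas1 was the abundant alpha subunit that did not pass the test there. Each window is 300 bases, from 250 before to 50 after the gene's start, read 5′ to 3′ on the gene's strand from the RefSeq annotation of GRCr8. The windows lie at chr6:98359648-98359947 (plus strand) for Hif1a, chr6:13624680-13624979 (minus) for Epas1, chr1:86877789-86878088 (minus) for the first of the 2 windows of Hif3a, chr19:69804632-69804931 (minus) for Egln1 and chr6:77410966-77411265 (minus) for Egln3. Capitals mark ACGTG or GCGTG on either strand, the core letters of the hypoxia response element.
Hif1a: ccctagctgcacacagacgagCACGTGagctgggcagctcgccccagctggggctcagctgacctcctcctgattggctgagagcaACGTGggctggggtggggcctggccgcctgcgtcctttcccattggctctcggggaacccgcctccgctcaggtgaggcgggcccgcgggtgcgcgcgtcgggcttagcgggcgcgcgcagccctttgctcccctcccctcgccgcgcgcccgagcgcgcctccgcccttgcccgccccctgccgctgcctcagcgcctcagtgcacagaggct
Epas1: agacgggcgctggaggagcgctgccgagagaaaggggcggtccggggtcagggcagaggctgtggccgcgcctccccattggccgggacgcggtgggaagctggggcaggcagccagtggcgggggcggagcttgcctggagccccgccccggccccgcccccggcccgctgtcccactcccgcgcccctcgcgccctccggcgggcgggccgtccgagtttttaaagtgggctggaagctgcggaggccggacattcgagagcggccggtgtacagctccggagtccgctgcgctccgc
Hif3a: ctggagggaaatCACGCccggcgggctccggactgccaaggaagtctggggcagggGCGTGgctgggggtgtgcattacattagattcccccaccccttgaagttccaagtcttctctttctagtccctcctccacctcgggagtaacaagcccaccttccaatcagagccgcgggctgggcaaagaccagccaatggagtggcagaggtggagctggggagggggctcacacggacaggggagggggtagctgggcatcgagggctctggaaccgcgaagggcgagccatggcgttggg
Egln1: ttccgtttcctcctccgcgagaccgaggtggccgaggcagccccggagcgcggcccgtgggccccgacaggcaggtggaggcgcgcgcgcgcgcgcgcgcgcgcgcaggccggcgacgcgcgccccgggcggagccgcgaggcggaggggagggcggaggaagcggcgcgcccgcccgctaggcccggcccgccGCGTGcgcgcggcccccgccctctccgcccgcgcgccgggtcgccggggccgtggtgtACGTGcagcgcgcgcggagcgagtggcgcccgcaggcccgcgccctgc
Egln3: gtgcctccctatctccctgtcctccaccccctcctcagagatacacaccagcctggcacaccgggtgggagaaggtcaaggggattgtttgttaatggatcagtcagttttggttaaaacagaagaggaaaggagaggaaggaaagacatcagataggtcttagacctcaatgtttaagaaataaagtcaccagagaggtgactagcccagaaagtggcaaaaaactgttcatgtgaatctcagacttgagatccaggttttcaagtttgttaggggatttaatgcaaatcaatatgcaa

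All 9 members matched a RefSeq window, and the core letters were present in those of Hif1a, Hif3a, Egln1 and Arnt. The Hif1a window held ACGTG 3 times, at -229 on the minus strand and at -228 and -164 on the plus strand counted from the start site, and the first 2 overlap in 1 palindromic run. In Egln1, GCGTG stood at -56 and ACGTG at 3 bases after the start. The Hif3a window held GCGTG on the minus strand at -238 and on the plus strand at -194, and its second window held neither motif. Arnt had GCGTG at -42. No match was found in the windows of Epas1, Egln2, Egln3, Hif1an or Vhl, which says only that these letters are not within those 300 bases. Such matches are common, since 41.6% of 33469 windows of that length held either motif and 19.3% held ACGTG.

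Between Sham and MI, Hif1a rose and Epas1, Hif3a, Egln1, Egln3 and Hif1an fell, while Arnt, Egln2 and Vhl did not pass the test. That is 1 member higher and 5 lower, beside 30.2% and 33.6% of all 15101 genes tested, and the median log2 fold change was -0.93 for the members and -0.06 for all genes. Without Hif3a, 1 was higher and 4 lower at a median of -0.52. With total counts alone 3 of the 9 were higher and 4 lower, where 7707 and 2776 of the 15101 genes were. Between MI and iCarP+/Light+, 6 members rose, namely Hif1a, Hif3a, Arnt, Egln1, Egln3 and Vhl, and 0 fell, against 11.6% and 2.01% of all genes. Hif3a had to differ there, because it was abundant enough to be tested only through the iCarP+/Light+ rats. Among the 8 other members 5 rose, and their median was 0.76, against 0.01 for all genes. The count of members that fell was also 0 at an unadjusted p under 0.05, in DESeq2 and in limma-voom. Between Sham and iCarP+/Light+, 5 members were higher and 2 lower, or 4 and 2 without Hif3a, where 33.5% and 33.0% of all genes were called, so those counts are to be read against a background in which most genes moved. Tests are those of an edgeR quasi-likelihood fit over all rats, with p adjusted over all genes tested and called below 0.05. The 3 comparisons share their groups and are not independent of each other.

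**Figure D1:**
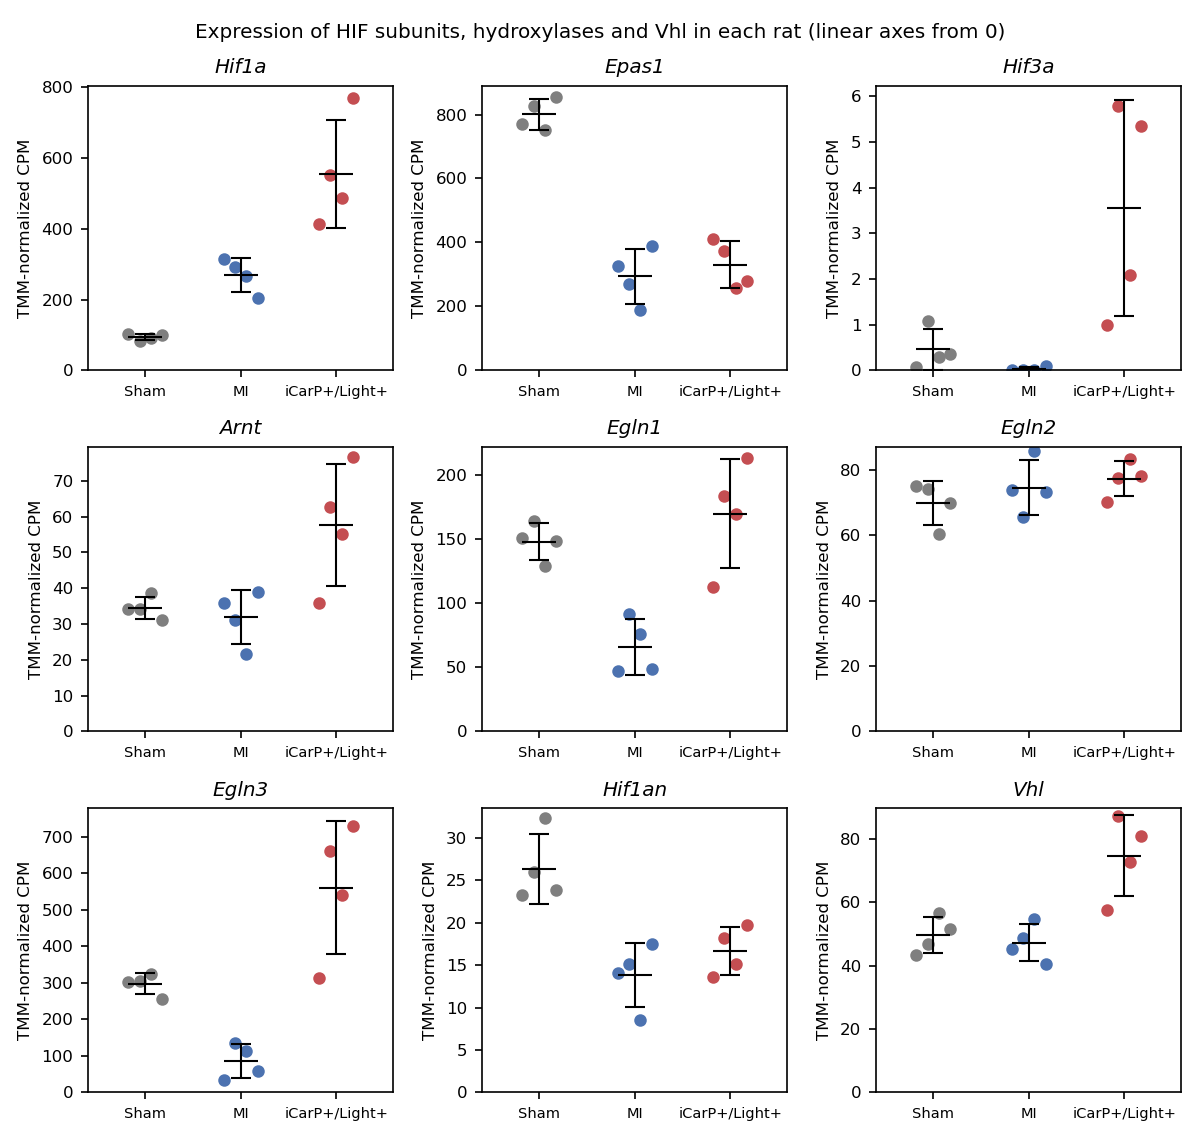
Expression of the 9 genes in each of the 12 rats, in TMM-normalized CPM on linear axes that start at 0 and differ between panels. Points are rats, the long bar is the mean of 4 rats and the whiskers are the SD. Hif1a steps up from Sham over MI to iCarP+/Light+, Epas1 is high only in Sham, and Egln1 and Egln3 are lowest in MI.

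Libraries held 14064414 to 17136958 assigned reads, and levels are given as CPM, reads per 1000000 reads of a library after TMM scaling. A count of 3 reads, the level below which a value cannot be told from 0, corresponds to 0.144 to 0.228 CPM. That floor covers counting error only. The tissue carried its cardiac label: the 9 cardiomyocyte markers of 10 listed that are in the table summed to 52598 to 57814 CPM in Sham rats. The sum was 3376 to 7020 CPM in MI and 2893 to 8321 CPM in the iCarP+/Light+ rats, and none of these markers was at 0 in all rats of a group. Mitochondrial genes took 22.8 to 28.9% of reads in Sham hearts, 8.52 to 11.5% in MI and 7.14 to 14.2% in the iCarP+/Light+ rats. The scaling of libraries mattered as well, since with total counts alone, the median gene shifted by 0.52 from Sham to MI, by -0.25 from MI to iCarP+/Light+ and by 0.33 between Sham and iCarP+/Light+. In the step from MI to iCarP+/Light+ the genes called were then 1204 higher and 2722 lower, against 1747 and 304 with TMM and 1849 and 763 in DESeq2, and from Sham to MI they were 7707 higher and 2776 lower, against 4553 and 5080. Between Sham and iCarP+/Light+ they were 6664 and 3639, against 5057 and 4988. Single rats also moved the counts from MI to iCarP+/Light+ with TMM: those lower were 157 without iCarP+/Light+ rat 2 and 161 without MI rat 1, and those higher were 1124 without iCarP+/Light+ rat 5. All of this is bulk tissue, in which fewer cells of a type and less RNA per cell cannot be told apart.

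Hif1a, the alpha subunit that drives the glycolytic response, lies at chromosome 6, 96810907 to 96856052, on the plus strand (coordinates as listed in the count table, whose build is rn6 by the submitters' processing notes). It was at 102, 82.9, 90.7 and 99.9 CPM in Sham rats 1, 2, 3 and 5. In MI rats 1, 3, 4 and 5 it was at 313, 291, 267 and 204 CPM, and in the iCarP+/Light+ rats 1, 2, 4 and 5 at 412, 551, 486 and 768 CPM. Values of other genes are given in the same order of rats. The 3 groups stood apart without overlap, and MI rat 5 was the lowest of the infarcted rats and iCarP+/Light+ rat 5 the highest. Hif1a rose 2.86-fold from Sham to MI (log2 1.52 ± 0.19 (SE), adjusted p = 1.49e-05) and a further 2.06-fold from MI to iCarP+/Light+ (1.05 ± 0.19, adjusted p = 0.00214). Over both steps it rose 5.90-fold (2.56 ± 0.20, adjusted p = 1.98e-07). Leukocyte markers, 9 of 10 listed, moved in the same direction, with sums of 250 to 431 CPM in Sham hearts, 3926 to 7039 in MI and 5933 to 10575 in the iCarP+/Light+ rats. Of these 9, 8 rose from Sham to MI and 5 from MI to iCarP+/Light+, beside 30.2% and 11.6% of all genes that rose. In the second step 2 of them fell with total counts alone, as did 2722 of 15101 genes. None of the 9 was at 0 in all rats of a group, and their part in the rise of Hif1a was not tested.

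Epas1, which encodes HIF-2 alpha, was lower in both infarcted groups than in Sham. The gene lies on chromosome 6, 10306405 to 10387265 (plus strand in the count table, whereas the GRCr8 window above is on the minus strand). Its levels were 770, 827, 751 and 856 CPM in Sham, 326, 271, 190 and 389 CPM in MI, and 411, 374, 258 and 278 CPM in the iCarP+/Light+ rats. Every Sham rat was above every infarcted rat, and the MI and iCarP+/Light+ ranges lay over each other. Epas1 fell 2.73-fold from Sham to MI (log2 -1.45 ± 0.21 (SE), adjusted p = 5.08e-05) and was 2.42-fold lower in iCarP+/Light+ than in Sham (-1.28 ± 0.21, adjusted p = 1.28e-04). The difference between MI and iCarP+/Light+ was 0.17 ± 0.21 on the log2 scale (adjusted p = 0.669). With total counts alone the fall from Sham to MI was -0.86 (adjusted p = 0.00398), or -1.38 relative to the median gene.

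Endothelial markers, 9 of 10 listed and none at 0 in all rats of a group, fell too, from sums of 1928 to 2129 CPM in Sham hearts to 912 to 1379 in MI and 1184 to 1332 in the iCarP+/Light+ rats. Of these 9, 8 fell from Sham to MI, 7 were lower in iCarP+/Light+ than in Sham, and edgeR called 0 in either direction between MI and iCarP+/Light+ (2 higher and 0 lower at an unadjusted p under 0.05, and 0 called in DESeq2 and in limma-voom). With total counts alone just 3 of the 9 fell and 1 rose from Sham to MI, and 4 were lower in iCarP+/Light+ than in Sham. Of all genes, 33.6% fell from Sham to MI and 33.0% from Sham to iCarP+/Light+ with TMM. The log2 ratio of Epas1 reads to the summed reads of these markers within each rat was -1.37 ± 0.06 in Sham, -2.02 ± 0.24 in MI and -1.95 ± 0.27 in the iCarP+/Light+ rats (SD, n = 4). Both infarcted groups lay below all Sham rats (exact permutation test, two-sided, p = 0.0286 in each case, the smallest that 4 against 4 rats allow, adjusted over 12 tests p = 0.049). MI and iCarP+/Light+ overlapped (exact permutation p = 0.571). The call rests on the marker set: with Cdh5 alone as the endothelial gene, the differences from Sham were -0.19 for MI (exact permutation, adjusted p = 0.218) and -0.37 for iCarP+/Light+ (adjusted p = 0.098).

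Hif3a, the third alpha subunit, on chromosome 1 at 78976318 to 78997869 (minus strand), was scarce throughout. Its reads numbered 1, 16, 4 and 5 in Sham, 0, 0, 0 and 2 in MI, and 16, 96, 31 and 76 in the iCarP+/Light+ rats. On the CPM scale this is 0.07, 1.09, 0.30 and 0.37 in Sham, at most 0.11 in MI, and 1.00, 5.80, 2.10 and 5.34 in the iCarP+/Light+ rats. All iCarP+/Light+ rats were above all MI rats, Sham rat 2 was above iCarP+/Light+ rat 1, and Sham rat 1 was below MI rat 5. With 219 reads against 2, the depth-corrected ratio of iCarP+/Light+ to MI was 135 (95% exact counting interval 37.1 to 1126), and that of Sham to MI, 26 reads against 2, was 17.9 (4.49 to 156). The ratio of iCarP+/Light+ to Sham was 7.56 (5.02 to 11.8). These intervals cover counting error only and leave out the spread between rats. Hif3a passed the filter on low counts only through the iCarP+/Light+ rats, so a higher level in that group than in MI or Sham was built into its being tested. The edgeR fit called all 3 differences, of which those with iCarP+/Light+ are descriptions for that reason (adjusted p = 0.0111 for Sham to MI, 5.92e-04 for MI to iCarP+/Light+ and 0.00325 for Sham against iCarP+/Light+). The fall from Sham to MI was lost without Sham rat 2, which held 16 of the group's 26 reads (log2 -2.90 in place of -3.79, adjusted p = 0.0543). Single rats also set the fitted sizes: without MI rat 5, the log2 value was -5.90 in place of -3.79 from Sham to MI and 8.82 in place of 6.71 from MI to iCarP+/Light+, and without Sham rat 2 it was 3.81 in place of 2.92 from Sham to iCarP+/Light+.

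The make-up of the alpha transcripts, taken within each rat, shifted from Epas1 towards Hif1a between Sham and the infarcted groups. Hif1a formed 14.0, 10.9, 12.9 and 12.5% of the summed reads per kilobase of the alpha subunits in Sham, 54.1, 56.9, 63.3 and 39.1% in MI, and 55.0, 63.6, 69.4 and 76.4% in the iCarP+/Light+ rats. Epas1 made up almost all of the rest, 87.3% ± 1.17 in Sham, 46.6% ± 10.2 in MI and 33.1% ± 9.31 in the iCarP+/Light+ rats (SD, n = 4). Hif3a stayed below 1.3% in every rat, its largest share being 1.29%. The Hif1a share was thus 12.6% ± 1.28 in Sham, 53.4% ± 10.3 in MI and 66.1% ± 9.07 in the iCarP+/Light+ group (SD, n = 4), and neither infarcted group overlapped Sham (exact permutation p = 0.0286 for both, adjusted p = 0.049). In iCarP+/Light+ rats compared with MI the share was 12.7 percentage points higher, with overlapping groups (exact permutation p = 0.114, adjusted p = 0.137), and without MI rat 5 the difference was 7.99 points. Without division by gene length, the differences from Sham were 37.9 and 51.3 points, still without overlap, at an adjusted p of 0.0571 each by the exact permutation test.

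**Figure D2:**
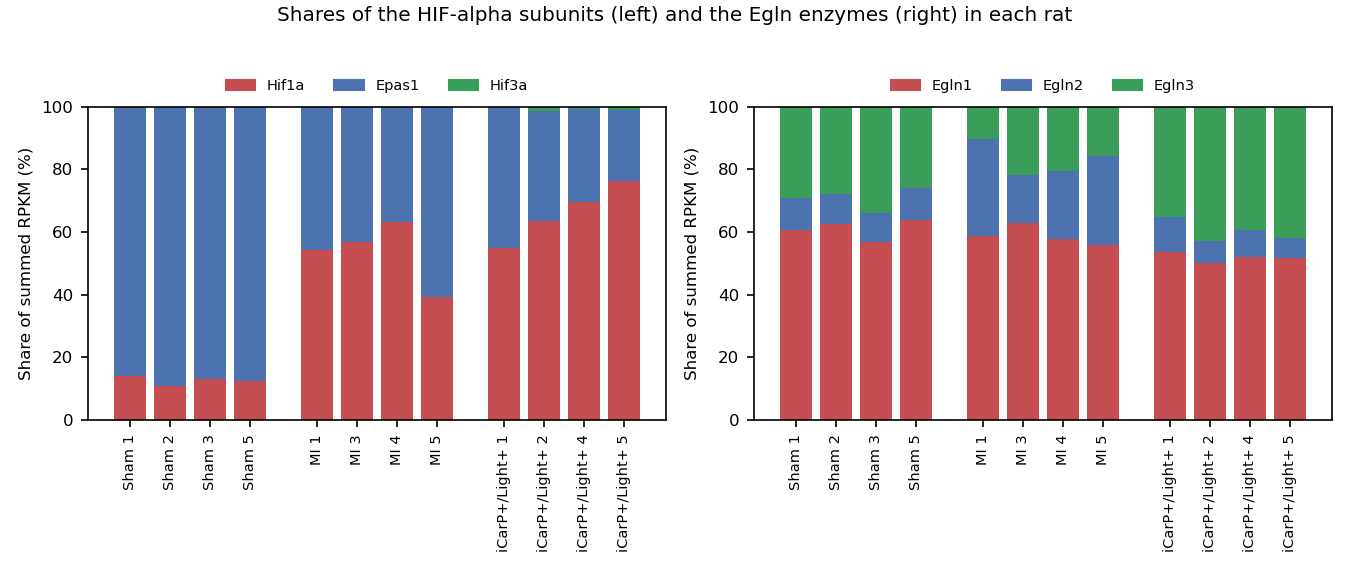
Make-up of the alpha subunits (left) and of the Egln enzymes (right) in each rat, as percent of their summed reads per kilobase. Each bar is 1 rat and adds up to 100%. The Hif1a segment is 10.9 to 14.0% in Sham and 39.1 to 76.4% in the infarcted rats, and the Egln3 segment is smallest in MI.

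Arnt, the common beta subunit that every alpha subunit needs, on chromosome 2 at 196594303 to 196651179 (plus strand), was at 34.3, 34.2, 38.6 and 31.0 CPM in Sham, 35.8, 31.0, 21.7 and 39.0 CPM in MI, and 35.9, 62.7, 55.2 and 76.7 CPM in the iCarP+/Light+ rats. Sham and MI lay over each other, and iCarP+/Light+ rat 1 remained within both ranges while the other 3 were above them. From Sham to MI the log2 difference was -0.11 ± 0.22 (SE, adjusted p = 0.66). Arnt rose 1.81-fold from MI to iCarP+/Light+ (0.85 ± 0.22, adjusted p = 0.0178) and was 1.67-fold higher in iCarP+/Light+ than in Sham (0.74 ± 0.22, adjusted p = 0.00864). The rise from MI is a weak call: it was lost without iCarP+/Light+ rat 2 (0.81, adjusted p = 0.0507) or rat 5 (0.60, adjusted p = 0.0938), and when the fit held only the rats compared (0.81, adjusted p = 0.0617). With total counts alone it was lost as well (0.56, adjusted p = 0.0674), at 0.82 relative to the median gene.

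Egln1, known as the main prolyl hydroxylase that sets HIF levels at normal oxygen, lies at chromosome 19, 57662278 to 57699113 (minus strand). Its levels were 151, 164, 129 and 148 CPM in Sham, 47.1, 91.4, 76.2 and 48.6 CPM in MI, and 113, 184, 170 and 213 CPM in the iCarP+/Light+ rats. All MI rats were below all rats of both other groups, and Sham and iCarP+/Light+ overlapped. Egln1 fell 2.25-fold from Sham to MI (log2 -1.17 ± 0.23 (SE), adjusted p = 6.25e-04) and rose 2.58-fold from MI to iCarP+/Light+ (1.37 ± 0.23, adjusted p = 0.00138). Its difference between Sham and iCarP+/Light+ was 0.20 ± 0.23 (adjusted p = 0.459).

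Egln3, the prolyl hydroxylase best known as strongly inducible by low oxygen, also had its lowest levels in MI. The gene lies on chromosome 6, 75050329 to 75075795 (minus strand). It was at 303, 306, 324 and 256 CPM in Sham, 34.7, 134, 113 and 57.9 CPM in MI, and 312, 659, 541 and 728 CPM in the iCarP+/Light+ rats. MI rats 1 and 5, the lowest in Egln3, were also the lowest in Egln1, and no MI rat reached the level of any rat in the other groups. Egln3 fell 3.50-fold from Sham to MI (log2 -1.81 ± 0.37 (SE), adjusted p = 7.87e-04) and rose 6.60-fold from MI to iCarP+/Light+ (2.72 ± 0.38, adjusted p = 3.47e-04). Against Sham it was 1.89-fold higher in iCarP+/Light+ (0.91 ± 0.36, adjusted p = 0.0374), with iCarP+/Light+ rat 1 inside the Sham range. That last call passed in only 5 of the 12 fits that left out 1 rat, at log2 values of 0.78 to 1.11. Every fit without an MI rat, a group outside this comparison, is among those 5. The call was lost without any of Sham rats 1, 2, 3 or 5 (0.92, 0.93, 0.96 and 0.85) or iCarP+/Light+ rats 2, 4 or 5 (0.83, 0.93 and 0.78), and also in limma-voom (0.85, adjusted p = 0.0623).

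Cardiomyocyte markers fell with Egln1 and Egln3 from Sham to MI, 9 of 9 lower with a median log2 change of -3.21, beside 33.6% of all genes. The part of these markers in the fall of the Egln genes was not tested. Between MI and iCarP+/Light+, where Egln1 and Egln3 rose, 0 of the 9 were called in either direction by edgeR, with a median of 0.07. The count was also 0 at an unadjusted p under 0.05, in DESeq2 and in limma-voom. Only 11.6% of all genes rose there and 2.01% fell, so 0 of 9 is near that background. Red blood cell genes, 6 of 7 listed and none at 0 in all rats of a group, did move in that comparison: 4 of 6 rose, where 11.6% of all genes did. From Sham to MI, 5 of 6 fell (median log2 change -1.03), against 33.6% of all genes. With total counts alone only 1 fell, where 2776 of 15101 genes did. The sums of the red blood cell genes were 7945 to 10682 CPM in Sham hearts, 2523 to 7027 in MI and 6250 to 17620 in the iCarP+/Light+ rats. Their part in the fall and the rise of the Egln genes was not tested.

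Egln2, the prolyl hydroxylase that is not induced by low oxygen, lies on chromosome 1 at 83969457 to 83977236 (minus strand). It was at 75.2, 74.3, 60.3 and 69.9 CPM in Sham, 73.9, 65.5, 85.8 and 73.1 CPM in MI, and 70.3, 77.5, 83.2 and 78.1 CPM in the iCarP+/Light+ rats. The 3 groups lay over each other. The log2 differences were 0.09 ± 0.11 from Sham to MI (SE, adjusted p = 0.474), 0.05 ± 0.11 from MI to iCarP+/Light+ (adjusted p = 0.815) and 0.14 ± 0.11 between Sham and iCarP+/Light+ (adjusted p = 0.26). With total counts alone it was called higher than Sham in MI (0.67) and in iCarP+/Light+ (0.45), values that stand 0.14 and 0.12 above the shift of the median gene. The gene span of Egln2 shares 103 bases with that of Cyp2t1 on the opposite strand, and the library kit did not mark strand. Cyp2t1 itself was at only 1.51 to 9.07 CPM.

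Among the 3 prolyl hydroxylases the shares shifted accordingly. Egln3 formed 29.0, 27.8, 34.1 and 26.1% of their summed reads per kilobase in Sham, 10.3, 21.9, 20.4 and 15.8% in MI, and 35.3, 42.7, 39.4 and 41.9% in the iCarP+/Light+ rats. The groups did not overlap, with means of 29.2% ± 3.43, 17.1% ± 5.23 and 39.8% ± 3.36 (SD, n = 4; exact permutation p = 0.0286 for each pair of groups, adjusted p = 0.049). Egln2 had its largest share in MI, at 24.1% ± 7.07 against 9.72% ± 0.56 in Sham and 8.33% ± 2.15 in the iCarP+/Light+ rats. Per kilobase, Egln1 held the largest share in every group, 61.0% ± 3.0, 58.8% ± 2.98 and 51.8% ± 1.37, but in plain reads Egln3 did in Sham and the iCarP+/Light+ rats. The shares per kilobase depend on the gene models, since that of Egln1 spans only 669 exon bases, fewer than its coding sequence is known to have, against 1987 for Egln2 and 2817 for Egln3. In plain reads, without division by length, the Egln3 share was 57.7% in Sham, 35.4% in MI and 68.6% in the iCarP+/Light+ rats. Those differences were -22.2 points from Sham to MI and 33.1 points from MI to iCarP+/Light+ (exact permutation, adjusted p = 0.0571 each) and 10.9 points between Sham and iCarP+/Light+ (adjusted p = 0.0857).

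The balance of hydroxylases to their substrates was examined as the log2 ratio of the summed Egln to the summed alpha reads per kilobase. It was 0.95 ± 0.11 in Sham, 0.34 ± 0.57 in MI and 1.21 ± 0.32 in the iCarP+/Light+ rats (SD, n = 4). Among MI rats it ran from -0.28 in rat 1 and -0.01 in rat 5 to 0.76 in rat 3 and 0.90 in rat 4. All pairs of groups overlapped, and no difference passed the exact permutation test (p = 0.0571 for Sham to MI, 0.0857 for MI to iCarP+/Light+ and 0.171 for Sham to iCarP+/Light+). The sign of the ratio rests on division by gene length: in plain reads it was -0.80 in Sham, -1.36 in MI and -0.18 in the iCarP+/Light+ group, and no difference passed there either.

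Hif1an, the asparaginyl hydroxylase also called FIH, on chromosome 1 at 264309214 to 264319267 (plus strand), was at 23.3, 25.9, 32.3 and 23.8 CPM in Sham, 14.1, 15.1, 8.55 and 17.5 CPM in MI, and 13.6, 18.2, 15.1 and 19.7 CPM in the iCarP+/Light+ rats. Sham rats were above all infarcted rats, whose groups lay over each other. With TMM scaling Hif1an fell 1.90-fold from Sham to MI (log2 -0.93 ± 0.20 (SE), adjusted p = 0.00141) and was 1.58-fold lower in iCarP+/Light+ than in Sham (-0.66 ± 0.20, adjusted p = 0.0116), and the difference between MI and iCarP+/Light+ was 0.27 ± 0.20 (adjusted p = 0.461). With total counts alone both falls were lost (-0.34, adjusted p = 0.166, and -0.35, adjusted p = 0.15), although relative to the shifted median gene they were -0.86 and -0.68.

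Vhl, the subunit that recognises hydroxylated HIF, on chromosome 4 at 145580799 to 145587845 (plus strand), was at 43.4, 46.9, 56.5 and 51.6 CPM in Sham, 45.3, 48.7, 54.7 and 40.6 CPM in MI, and 57.6, 87.2, 72.7 and 80.9 CPM in the iCarP+/Light+ rats. Sham and MI overlapped, and every iCarP+/Light+ rat was above both. Vhl rose 1.58-fold from MI to iCarP+/Light+ (log2 0.66 ± 0.14 (SE), adjusted p = 0.00689) and was 1.51-fold higher there than in Sham (0.59 ± 0.14, adjusted p = 0.00242). The difference between Sham and MI was -0.07 ± 0.14 (adjusted p = 0.693), and with total counts alone it was called at 0.51, which is -0.01 relative to the median gene.

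**Figure D3:**
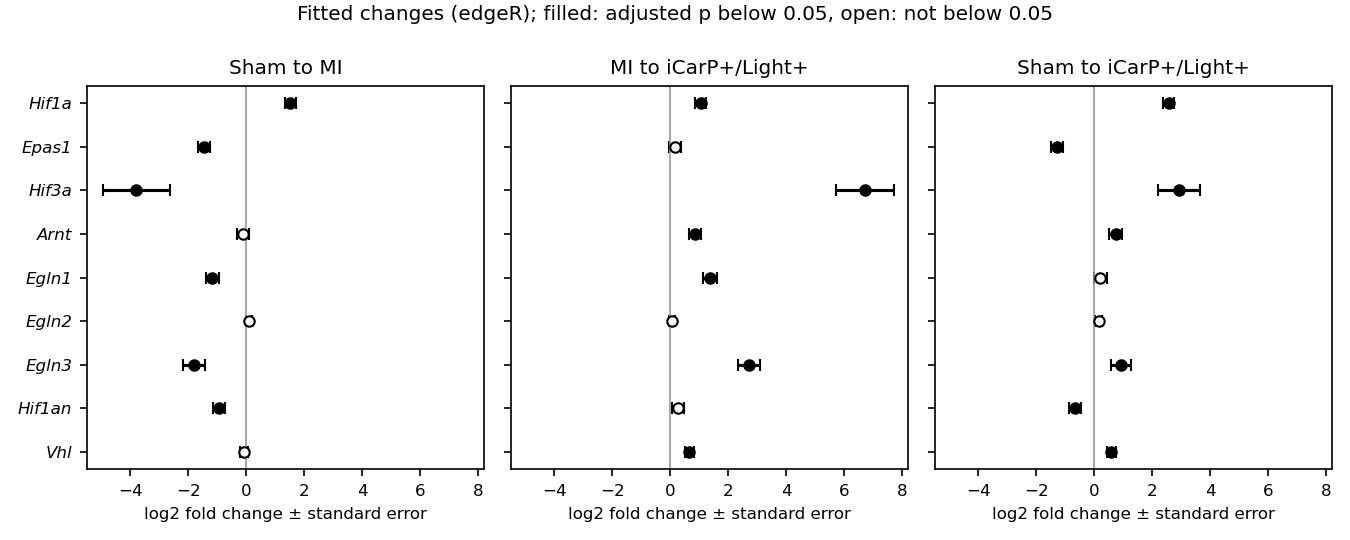
Fitted log2 fold changes of the 9 genes with their standard errors in the 3 comparisons, from edgeR. Filled points have an adjusted p below 0.05 and open points do not. From Sham to MI, 5 of the genes lie left of 0 as filled points and Hif1a is the one filled point right of it, and from MI to iCarP+/Light+ the 6 filled points, Hif3a among them, all lie right of 0.

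The iCarP+/Light+ rats differed among themselves. Rat 1 had the lowest level of its group in 8 of the 9 genes and the highest in the other one, Epas1, and rat 5 had the highest level in 5. Rat 1 also had the highest cardiomyocyte marker sum of the group (8321 CPM) and the lowest leukocyte sum (5933 CPM), and rat 5 the lowest cardiomyocyte sum (2893 CPM) and the highest leukocyte sum (10575 CPM), and the part of these cell types in the spread was not tested. Without rat 1, the fit still called 6 members from MI to iCarP+/Light+ and 7 between Sham and iCarP+/Light+. These counts were 5 and 6 without rat 2, 6 and 6 without rat 4, and 5 and 6 without rat 5. The calls over all 15101 genes moved as well, from 2051 and 10045 with all rats to 2460 and 9828 without rat 1. They were 1569 and 9637 without rat 2, 1738 and 9470 without rat 4, and 1403 and 9432 without rat 5. In MI, rat 4 was the lowest in Epas1, Arnt and Hif1an.

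Ordered by level per length (RPKM, CPM divided by the gene model in kilobases, on TMM-scaled libraries), Egln1 stood first in every group, at 221 RPKM in Sham, 98.4 in MI and 254 in the iCarP+/Light+ rats, with the reserve about its gene model given above. In Sham it was followed by Epas1 (164 RPKM), Egln3 (106), Egln2 (35.2), Hif1a (23.6), Hif1an (19.7), Vhl (17.2), Arnt (14.1) and Hif3a (0.22). Neighbours from Hif1a to Arnt overlapped in that order and the others did not. In MI the order was Egln1, Hif1a (67.4 RPKM), Epas1 (60.0), Egln2 (37.5), Egln3 (30.2), Vhl (16.4), Arnt (13.1), Hif1an (10.3) and Hif3a (0.01), and of all neighbours just Hif1an and Hif3a were apart. In iCarP+/Light+ rats Egln3 (199 RPKM) and Hif1a (139) followed Egln1 within overlapping ranges. Epas1 (67.5), Egln2 (38.9), Vhl (25.8), Arnt (23.6), Hif1an (12.5) and Hif3a (1.72) came after, and Vhl overlapped Arnt, which overlapped Hif1an. By RPKM, Hif1a thus moved from the fifth place in Sham to the second in MI and the third in the iCarP+/Light+ rats. Its range overlapped that of a neighbour in every group. Without division by length Egln1 was first in no group, and the places of Hif1a in Sham and in iCarP+/Light+ differed. Mean CPM of Egln1 was 148 in Sham (Epas1 801), 65.8 in MI (Epas1 294) and 170 in the iCarP+/Light+ rats (Egln3 560).

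The genes whose pattern over the 12 rats came closest to a member were sought among 10720 protein-coding genes with a mean of at least 5 CPM. The measure was the root-mean-square difference of log2 CPM, each gene centred on its own mean, and it carries no test because all genes share the libraries and the group means. For Hif1a the closest were Diaph1 (0.18), Lyn (0.18) and Klf10 (0.19), against an SD of Hif1a itself over the rats of 1.11. For Epas1 they were Pcnt (0.15), Mmrn2 (0.15) and Stxbp6 (0.17), against an SD of 0.75. Egln3 was followed most closely by Bnip3, at 0.32, with Ciart and Ak4 both at 0.51, against an SD of 1.36. Bnip3 was at 185 CPM in Sham, 82.2 in MI and 375 in the iCarP+/Light+ rats on average. Hif3a, with its few reads, had no near match: Mogat2 (0.83), Ccrl2 (0.84) and Klf5 (0.89) were the closest, against an SD of 2.06.

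The partners and regulators of HIF include other beta-type subunits, the rest of the Vhl ligase, coactivators and chaperones. Of 15 listed, 14 were tested and Ep300 was not analysed here. From Sham to MI, 5 rose and 3 fell (median log2 change 0.25), where 30.2% of all genes rose and 33.6% fell. With total counts alone 11 of the partners were higher and 1 lower, where 7707 and 2776 of 15101 genes were. The largest rises were those of Arntl, the clock partner that is related to Arnt (2.97 ± 0.29 (SE), adjusted p = 1.89e-06), and Arnt2, a close relative of Arnt that was scarce at 0.76 CPM in Sham (0.93 ± 0.34, adjusted p = 0.0293). The largest falls were those of P4htm, a membrane-bound prolyl hydroxylase (-1.53 ± 0.23, adjusted p = 7.47e-05), and Siah1, a ubiquitin ligase that acts on Egln enzymes (-0.49 ± 0.10, adjusted p = 8.79e-04). In the step to iCarP+/Light+, 2 rose and 0 fell (median 0.09), near the 11.6% and 2.01% of all genes. The count of lower partners was 1 at an unadjusted p under 0.05 and 0 in DESeq2 and in limma-voom. With total counts alone 1 was higher and 4 lower, where 1204 and 2722 of 15101 genes were. The 2 that rose with TMM were the coactivator Crebbp (0.78 ± 0.15, adjusted p = 0.004) and Cited2, which competes with HIF for that coactivator (0.51 ± 0.13, adjusted p = 0.0211). From Sham to iCarP+/Light+, 5 rose and 2 fell (median 0.17), beside 33.5% and 33.0% of all genes. Arntl (2.46) and the chaperone Hsp90aa1 (1.53) were highest and P4htm (-1.62) and Siah1 (-0.31) lowest. With total counts alone 9 were higher and 1 lower, where 6664 and 3639 of 15101 genes were.

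Of 32 genes that HIF is known to induce, other than the members, 31 were tested. Epo, the kidney hormone gene that gave HIF its first known target, had mean levels of 0.16 CPM or less in each group and was not tested. From Sham to MI, 9 rose and 9 fell, with a list median of -0.22. These shares are near the background of 30.2% and 33.6% of all genes. With total counts alone 12 were higher and 5 lower, where 7707 and 2776 of 15101 genes were. Car12, a carbonic anhydrase, went from 0.04 ± 0.07 CPM in Sham, at or under the counting floor, to 4.25 ± 4.45 CPM in MI (SD, n = 4), and Slc16a3, the lactate exporter, rose by a log2 value of 4.91 ± 0.39 (SE, adjusted p = 3.53e-07). Pdk1, which holds pyruvate back from the mitochondria (-2.19 ± 0.22, adjusted p = 1.98e-06), and Higd1a, a mitochondrial protein (-1.33 ± 0.22, adjusted p = 1.62e-04), fell most. With iCarP+/Light+ compared to MI, 25 of the 31 rose and 0 fell, where 11.6% and 2.01% of all genes were called, with a median of 1.32 against 0.01 for all genes. The count of targets that fell was also 0 at an unadjusted p under 0.05, in DESeq2, in limma-voom and with total counts alone. Ero1a, an oxidase of the endoplasmic reticulum, rose most (3.38 ± 0.34, adjusted p = 3.31e-05), followed by Edn1, which encodes the vasoconstrictor endothelin (3.27 ± 0.33, adjusted p = 3.12e-05). From Sham to iCarP+/Light+, 23 rose and 3 fell (median 1.02), where 33.5% of all genes rose and 33.0% fell. With total counts alone the counts were 24 and 1, where 6664 and 3639 of 15101 genes were called. Slc16a3 went from 4.01 ± 0.73 to 882 ± 326 CPM and Car12 to 10.6 ± 2.54 CPM (SD, n = 4), while Pdk1 (log2 -1.17) and Tfrc, the transferrin receptor (-0.69), were the lowest of those that fell.

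The other oxygenases listed here use oxygen and oxoglutarate and, together with the thiol dioxygenase Ado, were 28 genes, all tested. Of these, 3 (P4ha1, P4ha2 and Kdm3a) are also in the target list. The list is not complete: P4htm, also a prolyl hydroxylase, stands among the partners. It fell by log2 values of -1.53 from Sham to MI and -1.62 from Sham to iCarP+/Light+. From Sham to MI, 8 of the 28 rose and 8 fell (median -0.13), shares near the 30.2% and 33.6% of all genes. With total counts alone 14 were higher and 3 lower, where 7707 and 2776 of 15101 genes were. The collagen-modifying P4ha3, at 0.20 ± 0.17 CPM in Sham and 1.18 ± 0.42 in MI (SD, n = 4), and Plod2 (log2 1.82 ± 0.17 (SE), adjusted p = 1.56e-06) led the rises. Among the 28, the DNA demethylase Tet1 (-2.95 ± 0.43, adjusted p = 5.70e-05) and the aspartyl hydroxylase Asph (-1.20 ± 0.13, adjusted p = 3.86e-06) led the falls. Relative to MI, 11 rose in iCarP+/Light+ rats and 0 fell (median 0.43), where 11.6% and 2.01% of all genes were called, led by the histone demethylases Kdm6b (2.51 ± 0.27, adjusted p = 5.59e-05) and Kdm3a (2.10 ± 0.21, adjusted p = 3.12e-05). The count of lower oxygenases there was 1 at an unadjusted p under 0.05 and in DESeq2 and 0 in limma-voom. With total counts alone 9 were higher and 5 lower, where 1204 and 2722 of 15101 genes were. From Sham to iCarP+/Light+, 13 rose and 5 fell (median 0.46), beside 33.5% and 33.0% of all genes. Of the list, P4ha1 (2.92) and Kdm6b (2.50) were highest and Tet1 (-3.26) and Asph (-1.60) lowest. With total counts alone 20 were higher and 2 lower, where 6664 and 3639 of 15101 genes were.

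**Figure D4:**
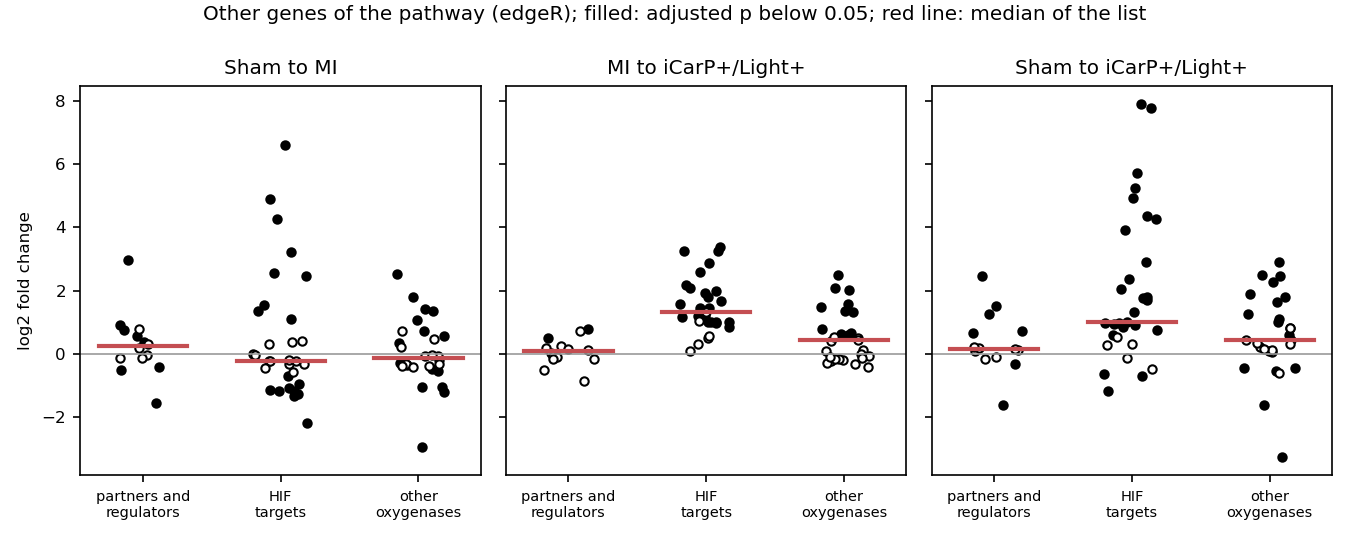
Fitted log2 fold changes of the partners and regulators, the HIF targets and the other oxygenases in the 3 comparisons. Each point is 1 gene, filled at an adjusted p below 0.05 in edgeR, and the red line is the median of the list. From MI to iCarP+/Light+ the medians are 0.09, 1.32 and 0.43, and none of the filled points lies below 0.

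The remaining cell types in these hearts moved as follows. Fibroblast markers, 8 of 8, summed to 4305 to 4901 CPM in Sham hearts, 1654 to 2098 in MI and 1094 to 2049 in the iCarP+/Light+ rats, and mural cell markers, 6 of 6, to 726 to 800, 325 to 626 and 228 to 394 CPM. None of either list was at 0 in all rats of a group. Between Sham and MI, 6 of 8 fibroblast markers fell and 1 rose (median log2 change -1.70) and 2 of 6 mural markers fell, where 33.6% of all genes fell. Between Sham and iCarP+/Light+, 7 of 8 fibroblast and 3 of 6 mural markers were lower, beside 33.0% of all genes. In the step from MI, 1 fibroblast marker rose in iCarP+/Light+ rats and edgeR called 0 lower (1 at an unadjusted p under 0.05, and 0 in DESeq2 and in limma-voom). Of all genes, 11.6% rose and 2.01% fell in that step. With total counts alone 0 fibroblast markers rose and 4 of 8 fell, where 1204 of 15101 genes rose and 2722 fell. Of the 6 mural markers edgeR called 0 in either direction, with 2 lower at an unadjusted p under 0.05 and in DESeq2, 0 in limma-voom and 3 with total counts alone. Whether these shifts have a part in the changes of the HIF and hydroxylase genes was not tested.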

How the data were processed

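RNA-seq of left ventricular tissue from 12 rats was used, 4 per group, with groups and replicate numbers taken from the sample titles and labels. The authors deposited raw counts, whole numbers of reads per gene without normalization, together with each gene's identifier, position and exon length. The submitters' processing notes name HISAT2, featureCounts and the build rn6, and their versions and strand setting are not given in the sources used here.

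The edgeR package (4.0.16, in R 4.3.3) served for all gene tests. After filterByExpr with a minimum count of 10 and TMM scaling, its quasi-likelihood test was applied to all rats together, each group having its own mean. P-values were adjusted by Benjamini-Hochberg over the 15101 genes tested, with a threshold of 0.05. CPM were computed on the scaled library, and RPKM divide them by the listed length. The script was tested on simulated data. Shares and ratios within a rat were tested by exact permutation of the rats, two-sided, with 70 arrangements (scipy 1.17.1), adjusted over 12 tests. Depth was 14064414 to 17136958 counts per rat. Intervals and floors cover counting error only.

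The members and the lists of partners, targets, oxygenases and cell type markers were chosen with earlier results of these data known, so no pattern here is independent of that choice. From each of the first 3 lists, the text names the 2 highest and 2 lowest fold changes past the threshold in each comparison, and for Hif1a, Epas1, Hif3a and Egln3 the 3 genes nearest in pattern. Epo falls outside this rule and was named because it was not tested. Alternatives were DESeq2 size factors, total counts alone, other filters on low counts, DESeq2 1.42.0, limma-voom (limma 3.58.1), a replicate block, only the rats compared, no mitochondrial genes and leaving out each rat. Promoter windows come from RefSeq (GRCr8). Protein sequences were not used here.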

Additional observations from a re-analysis of the deposited data

Results flagged for a closer look

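Hif3a in the MI group was marked because 1 rat stood apart from the others. Rats 1, 3 and 4 had 0 reads and rat 5 had 2, so the gap between the highest rat and the rest was the whole range of the group, a gap-to-range ratio of 1, past the 95% critical value of Dixon's test for 4 samples. With so few reads the ratio reflects 2 reads in 1 library, or 0.11 CPM, under the floor of 3 counts. In all, 39 groups of 4 rats were looked at, 1 was marked, and 1.95 are expected by chance.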

How the results depend on the processing

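Apart from leaving out rats, 240 fold changes of the members were recomputed under the alternatives, and 220 of them stayed on the same side of 0 and of the threshold. Of their 324 values from fits without 1 rat, 309 did so. Some of these fits left out a rat of the group outside the comparison, which bears little on that fold change. Hif3a could not be tested with at least 10 counts in every sample. The cause of a change was not tested.

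The log2 value of Vhl from Sham to MI, -0.07, turned positive with DESeq2 size factors (0.0035), total counts alone (0.51), at least 10 counts in every sample (0.012), DESeq2 (0.0035) and only the rats compared (0.058), and ranged from -0.15 to 0.034 over the rats left out. That of Arnt from Sham to MI became 0.48 with total counts alone and 0.017 with only the rats compared, and ranged from -0.23 to 0.031. From MI to iCarP+/Light+, total counts alone gave -0.11 for Epas1, -0.21 for Egln2 and -0.015 for Hif1an, and Egln2 was at -0.0071 under the stricter filter and at -0.032 to 0.13 over the rats left out. None of these was called with TMM.

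From MI to iCarP+/Light+, 2051 genes were called, 3926 with total counts alone and 1298 with the replicate block. Replicate numbers do not pair the rats: same-numbered rats are different animals, and the correlations of their deviations ran from -0.15 to 0.065. With the replicate block Arnt lost its call from MI to iCarP+/Light+ (0.85, adjusted p = 0.0601), and Egln2 there was at -0.013. No other member's call changed.

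Without division by length, the differences of the Hif1a share from Sham were 37.9 and 51.3 points and those of the Egln3 share -22.2, 33.1 and 10.9 points. All 5 missed the threshold after adjustment. All but the last were still without overlap, at an unadjusted exact permutation p of 0.0286. Pecam1 was not analysed here, so the endothelial alternative used Cdh5 alone. It gave -0.19 from Sham to MI, -0.18 from MI to iCarP+/Light+ and -0.37 between Sham and iCarP+/Light+. With 1 rat left out, shares and ratios are values without a test, since 3 against 4 rats cannot reach a two-sided exact p of 0.05. Depth limits Hif3a, which had 2 reads in the MI group.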
